A study of Sus scrofa with 8 samples.

Results

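The intervals described here are the long stretches of the pig genome in which neither CTCF library of pig embryonic fibroblasts (PEFs) had a peak. The CTCF peaks of both replicates were pooled and overlapping peaks were merged, which gave 45815 CTCF regions on chromosomes 1 to 18 and X and 45796 intervals between neighbouring regions of the same chromosome. An interval was kept when it was at least 300 kb long, and the ends of chromosomes were not counted. The rule kept 748 intervals, 1.63% of all, with a total length of 356 Mb, or 14.9% of the 2392 Mb of these chromosomes. The intervals were chosen by the positions of the CTCF peaks, so the length of the intervals and the absence of CTCF inside them are how they were chosen and not findings.

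The study immunoprecipitated H3K4me3, H3K27ac and CTCF from untreated PEFs, with 2 libraries for each. The cells were isolated from Large White fetuses of 35 days and kept in culture for a short time. The labels do not say whether the replicates were separate cultures or animals, so the spread between replicates may be technical. No treatment, genotype or time point was compared, and the comparisons below are between the long intervals and the rest of the same chromosomes within the same libraries. Between 37495 and 80531 peaks per library lay on these chromosomes, and the number of reads behind a peak is not in the lists. All 10 fibroblast marker genes searched for, among them COL1A1, PDGFRA and TWIST1, had H3K4me3 and H3K27ac at the start in both replicates. Of 14 markers of other cell types, 7 had H3K4me3 and 1 had H3K27ac, the neuronal gene SNAP25. Among all protein-coding genes, 68.9% had H3K4me3 and 60.7% had H3K27ac.

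CTCF is a zinc finger protein that binds a long and directional DNA motif. In the loop extrusion model, cohesin reels in chromatin until it meets CTCF, and pairs of sites whose motifs point towards each other often form the feet of loops and the borders of topologically associating domains. H3K4me3 marks promoters, and H3K27ac marks active promoters and enhancers. Mammalian genomes also hold gene deserts, very long neuronal genes and clusters of olfactory receptor genes, most of which are silent outside the nervous system or the nose.

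The sites that bound the intervals show what lies at their edges. The following sequences are the best motif matches at both bounding regions of the 5 intervals whose weaker bounding region had the highest fold enrichment. They are from Sscrofa11.1, written 5′ to 3′ on the strand of the motif, and the capitals mark the 19 bp matched by the CTCF motif learned from these peaks.

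chr17:9762866-9762914, forward strand, left of the ZMAT4 interval: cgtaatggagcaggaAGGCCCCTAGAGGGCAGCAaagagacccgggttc
chr17:10275930-10275978, forward strand, right of the ZMAT4 interval: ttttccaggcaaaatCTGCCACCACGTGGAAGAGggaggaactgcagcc
chr8:112875971-112876019, forward strand, left of the COL25A1 interval: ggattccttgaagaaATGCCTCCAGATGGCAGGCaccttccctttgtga
chr8:113306333-113306381, reverse strand, right of the COL25A1 interval: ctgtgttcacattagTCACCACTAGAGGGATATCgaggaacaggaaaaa
chr11:52740242-52740290, forward strand, left of the interval between SPRY2 and SLITRK1: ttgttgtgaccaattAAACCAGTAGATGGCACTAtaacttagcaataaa
chr11:53045739-53045787, forward strand, right of the interval between SPRY2 and SLITRK1: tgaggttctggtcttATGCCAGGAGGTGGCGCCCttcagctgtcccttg
chr4:78235497-78235545, forward strand, left of the SNTG1 interval: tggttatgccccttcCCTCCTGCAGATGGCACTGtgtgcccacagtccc
chr4:78612759-78612807, reverse strand, right of the SNTG1 interval: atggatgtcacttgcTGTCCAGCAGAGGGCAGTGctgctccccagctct
chr13:167941397-167941445, forward strand, left of the HTR1F interval: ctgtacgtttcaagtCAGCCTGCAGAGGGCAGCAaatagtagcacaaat
chr13:168308052-168308100, forward strand, right of the HTR1F interval: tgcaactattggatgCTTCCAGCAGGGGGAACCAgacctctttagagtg

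None of these 10 sites lay in an exon. Both sites of the COL25A1 interval and the right site of the SNTG1 interval were intronic, the left site at the SPRY2 end was in an intron of an uncharacterized locus, and the other 6 were intergenic. In the COL25A1 and SNTG1 intervals the motifs pointed inwards, towards each other, and in the other 3 intervals both were on the forward strand. Fold enrichment, the height of a peak over control, was 53.0 and 61.7 at the left and 59.5 and 53.1 at the right of the COL25A1 interval in replicates 1 and 2. At the ZMAT4 interval it was 69.8 and 66.5 on the left and 61.1 and 57.1 on the right, although the right match was the weakest of the 10, with a log2 motif score of 10.46. The COL25A1 interval, chr8:112876463-113305770, lay wholly inside COL25A1, a brain collagen gene, and had 1 and 3 H3K4me3 summits and no H3K27ac summit.

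The median length of the intervals was 401 kb, against 26.0 kb for all intervals between neighbouring CTCF regions. Of the 748, 545 were shorter than 500 kb, 178 were between 500 kb and 1 Mb, and 25 were 1 Mb or longer. The 3 intervals just inside the threshold measured 300.35, 300.58 and 300.85 kb, and the 3 just outside it measured 299.18, 299.47 and 299.93 kb, so that no gap in length separates the members from the rest. The intervals were bounded by 1395 CTCF regions, and 101 of these lay alone between 2 long intervals. Such neighbours formed 81 runs of 2 or more intervals, 19 of them of 3 or more. The longest run by count held 4 intervals over 1517 kb of chromosome X. Another run of 3, chr12:28774406-30962232, covered 2188 kb with 3 gene starts and no histone summit in any of the 4 libraries.

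The intervals were unevenly spread over the chromosomes, as the plot by chromosome shows. Chromosome X had 79 intervals that covered 36.0% of its length, followed by chromosome 11 with 21.8% and chromosome 16 with 19.7%. The lowest shares were 7.24% on chromosome 12, with 9 intervals, 8.70% on chromosome 17 and 9.31% on chromosome 7. CTCF regions numbered 11.4 per Mb on chromosome X and 30.4 per Mb on chromosome 12. The labels used here give no sex for the cells, and a chromosome present in 1 copy and a lower density of bound sites cannot be told apart in these lists.

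**Figure D1:**
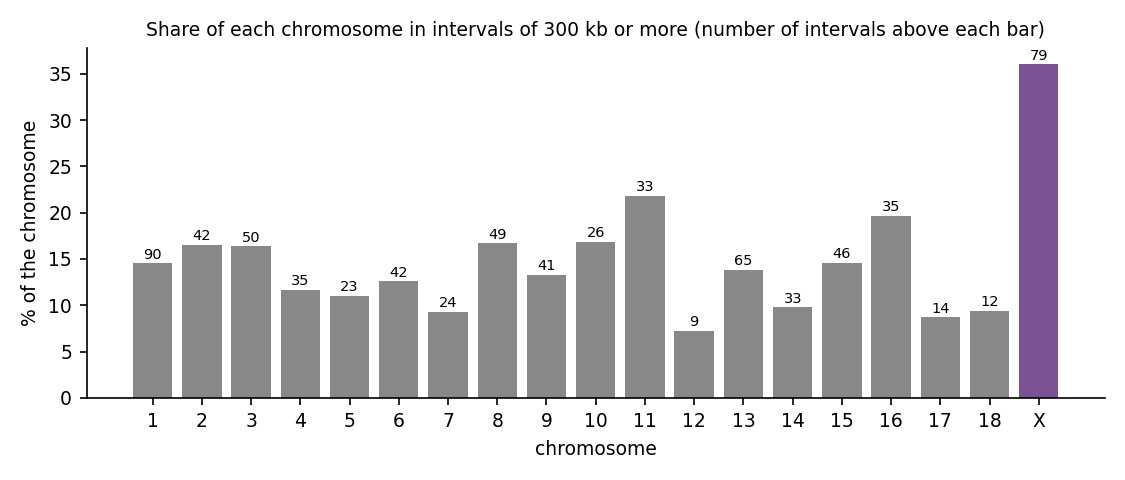
Bars give the percentage of each chromosome (x axis) that lay in intervals of 300 kb or more without a CTCF peak, and the numbers above the bars count the intervals. Chromosome X stands highest with 36.0% and 79 intervals, and chromosome 12 lowest with 7.24% and 9 intervals.

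The intervals were poor in both histone marks. H3K4me3 peak summits numbered 2.80 and 3.91 per Mb in replicates 1 and 2 (3.36 ± 0.782, SD, n = 2) inside the intervals, and 17.9 and 20.5 per Mb in the rest of the chromosomes. H3K27ac summits numbered 5.49 and 5.54 per Mb inside (5.51 ± 0.0337, SD, n = 2), and 35.6 and 38.6 per Mb outside. In both marks the values inside and outside did not overlap, and the gap was larger than the spread between replicates. The intervals hold no CTCF region by rule, whereas the rest holds all of them. Of all CTCF regions, 21.2% overlapped H3K4me3 and 26.8% overlapped H3K27ac in both replicates. How much of the gap follows from this choice was not tested. No test was made, because the intervals were chosen from the CTCF lists, regions are not replicates and each library gives 1 value. Where reads map uniquely in fewer places, fewer peaks can be called. The share of 32-base words that occur once in the assembly was 85.4% inside the intervals and 88.7% outside, repeats covered 39.3% and 35.5%, and the GC content was 38.3% and 42.4%. The part of these properties in the missing CTCF and histone peaks was not tested. Leaving out the 34 intervals with fewer than 70% unique words, a choice made after seeing the data, gave 3.46 H3K4me3 and 5.77 H3K27ac summits per Mb.

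The histone density fell with the length of the interval across the whole range, and the long intervals were the end of a gradient. H3K27ac summits averaged 48.6 ± 3.33 per Mb (SD, n = 2) in intervals under 50 kb, 28.0 ± 1.32 in those of 100 to 200 kb and 16.5 ± 0.343 in those of 200 to 300 kb. In the long intervals they averaged 7.53 ± 0.0654 per Mb below 500 kb, 3.24 ± 0.050 between 500 kb and 1 Mb, and 1.32 ± 0.112 above that. H3K4me3 summits went from 25.8 ± 1.69 per Mb in the shortest class to 4.56 ± 1.03 at 300 to 500 kb and 1.27 ± 0.112 in the longest. The share of unique 32-base words fell little between intervals under 50 kb (89.2%) and those of 500 kb to 1 Mb (86.4%), and was 69.7% in those of 1 Mb or more. The GC content fell from 45.1% in the shortest class to 37.7% at 500 kb to 1 Mb.

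**Figure D2:**
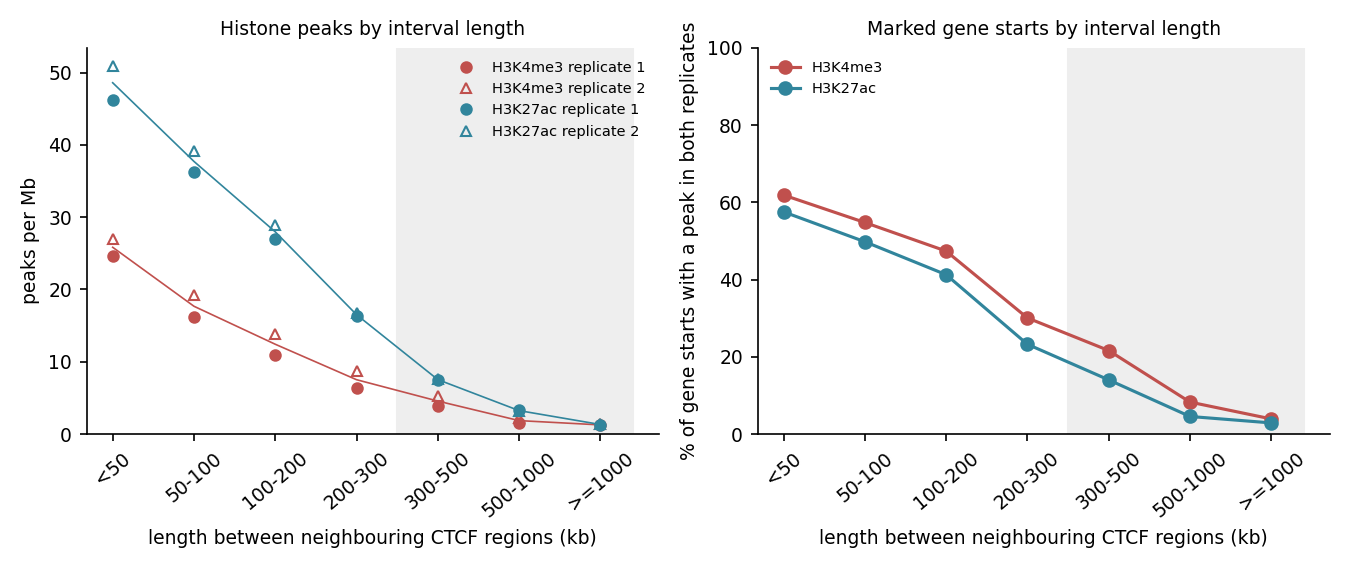
Left, H3K4me3 and H3K27ac peaks per Mb (y axis) in intervals between neighbouring CTCF regions, by length class in kb (x axis), with filled circles for replicate 1, open triangles for replicate 2 and lines through the means. Right, the percentage of gene starts in each class with a peak in both replicates; grey shading marks the long intervals, where H3K27ac fell from 7.53 to 1.32 peaks per Mb.

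The poverty in marks was not uniform. No histone summit of any library lay in 189 of the 748 intervals (25.3%), which together covered 91.3 Mb. Shorter intervals also often lacked any summit, 21.1% of those of 200 to 300 kb and 47.5% of those under 50 kb. Both H3K4me3 replicates had at least 1 summit in 386 intervals, and both H3K27ac replicates in 399. The median interval had 1.70 H3K4me3 and 1.73 H3K27ac summits per Mb, and the highest had 41.0 and 77.9. Of the 748 intervals, 25 reached the H3K4me3 density of the rest of the chromosomes and 29 reached its H3K27ac density.

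Within the intervals both marks were densest at the edges. H3K27ac summits numbered 10.9 ± 0.567 per Mb (SD, n = 2) in the outermost 10 kb and 7.11 ± 0.221 between 10 and 25 kb from the edge. They numbered 6.15 ± 0.170 per Mb between 100 and 150 kb, and 1.01 ± 0.110 at more than 500 kb from the nearest edge. H3K4me3 summits numbered 8.89 ± 1.51, 5.06 ± 0.977, 3.33 ± 0.794 and 0.623 per Mb at the same distances, the last in both replicates. Every interval contributes to the distances up to 150 kb, but only intervals longer than 1 Mb have bases more than 500 kb from an edge. Gene starts were at 7.35 per Mb in the outermost 10 kb, 4.59 per Mb at 100 to 150 kb and 14.2 per Mb beyond 500 kb, where olfactory receptor clusters lie. Outside the intervals the density was lower beside them than far away. H3K27ac summits numbered 13.7 ± 1.01 per Mb at 10 to 25 kb outside an edge and 41.5 ± 2.48 at more than 500 kb from any long interval, and the first 10 kb outside, which hold the bounding CTCF regions themselves, had 18.9 ± 1.97.

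**Figure D3:**
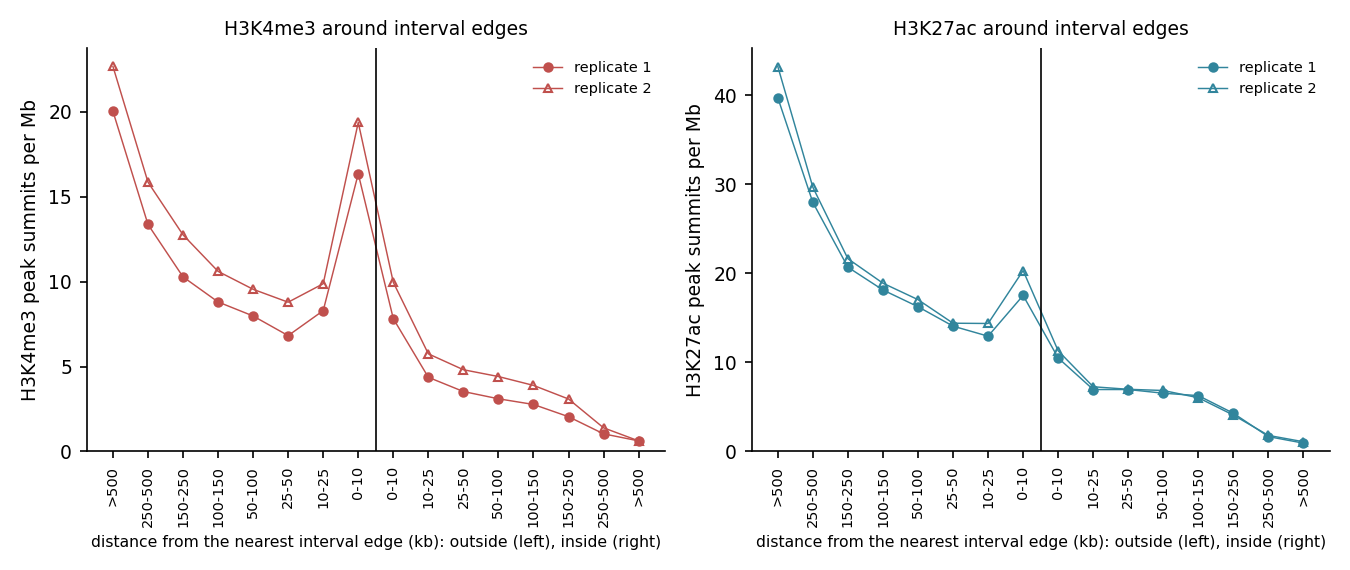
Summits per Mb of H3K4me3 (left) and H3K27ac (right) by distance in kb from the nearest edge of a long interval, with distances outside on the left of the vertical line and inside on the right, and 1 line per replicate. Both marks fell from the flanks into the intervals, to 0.623 and 1.01 per Mb at more than 500 kb inside.

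The histone peaks inside the intervals were also lower and narrower than elsewhere. The median fold enrichment of H3K4me3 peaks was 6.16 and 4.73 inside in replicates 1 and 2, and 9.33 and 6.19 outside. For H3K27ac peaks it was 4.33 and 4.33 inside, and 4.86 and 4.76 outside. The median width of H3K4me3 peaks was 847 and 897 bp inside against 1195 and 1207 bp outside. Of the 999 and 1393 H3K4me3 peaks inside, 23.4% and 16.9% lay within 1 kb of a gene start, compared with 35.3% and 31.0% outside. Of the H3K4me3 peaks of replicate 1 inside, 92.9% overlapped a peak of replicate 2, whereas 64.9% of those of replicate 2 overlapped a peak of replicate 1, so that part of the surplus of replicate 2 rests on that library alone.

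The intervals held few genes for their length. Of the 28077 annotated genes, 1916 (6.82%) started in an interval, which is 5.38 per Mb against 12.9 per Mb in the rest. Protein-coding genes contributed 1033 of 19487 (5.3% of all such genes), lncRNA genes 395 of 5399 (7.32%) and pseudogenes 463 of 2263 (20.5%). No gene started in 260 intervals (34.8%), and 302 overlapped no protein-coding gene at all. Shorter intervals lacked a gene start more often, in 41.5% of those of 200 to 300 kb and 75.7% of those under 50 kb. At the other extreme, 31 intervals with 10 or more genes held 967 of the 1916. Protein-coding genes covered 26.1% of the intervals and 50.9% of the rest.

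A gene start was called marked when a peak overlapped the 2 kb around it in both replicates. H3K4me3 marked 264 of the 1916 gene starts in the intervals (13.8%), where the background over all genes is 55.4%. H3K27ac marked 169 (8.82%), with a background of 50.1%. The background includes genes at CTCF regions, which the intervals exclude by rule. Of all CTCF regions, 10.7% had a gene start within 1 kb, and the part of this in the difference was not tested. Few pseudogenes and lncRNA genes in the intervals had H3K4me3, 0.864% and 9.11%, against 5.56% and 32.2% outside. Among protein-coding genes, much of the difference goes with the olfactory receptor genes. Of the protein-coding genes in the intervals, 220 of 1033 (21.3%) had H3K4me3, against a background of 68.9%, and 134 (13.0%) had H3K27ac, against 60.7%. Without the olfactory receptors, 220 of 436 (50.5%) had H3K4me3, against a background of 72.5%, and 132 (30.3%) had H3K27ac, against 63.9%. Of the 264 genes in the intervals with H3K4me3, 155 (58.7%) also had H3K27ac, while the background over all H3K4me3-marked genes is 84.9%. The H3K4me3 peaks at the marked starts had a median fold enrichment of 37.7 and 19.4 in the intervals and 51.4 and 25.05 outside.

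Olfactory receptor genes, which encode the odorant receptors of the nose and sit in tandem clusters, were the largest group in the intervals. Of the 999 annotated, 597 (59.8%) started in 27 of the 748 intervals. None of the 597 had H3K4me3 at the start in both replicates, as against 12 of the 402 that started elsewhere. Among these 12, LOC100522784, LOC100523167, LOC100523717 and LOC100523534 end within a few bp of each other on chromosome 2 and may share a start. H3K27ac was found in both replicates at 2 of the 597 and at 6 of the 402 elsewhere. The 2 were the 11H6-like and 11H4-like genes at chr7:78639839-78640839 and chr7:78666857-78671936. At these genes the H3K27ac fold enrichment was 6.49 and 7.62 at the first, and 7.35 and 5.24 at the second, in replicates 1 and 2. The 25 intervals with 5 or more olfactory receptor genes covered 18.7 Mb and had 1.07 and 1.12 H3K4me3 and 1.71 and 1.76 H3K27ac summits per Mb. The sequence of these clusters is repetitive. Their share of unique 32-base words ranged from 27.9% to 89.8% with a median of 64.6%, and 221 of the 597 genes were in intervals with a share of 70% or more. The authors kept uniquely mapped fragments only, and the part of the repeated sequence in the missing peaks was not tested. The 10 intervals with the most protein-coding genes were all such clusters, and 5 of them had no H3K4me3 summit.

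The longest interval of all was such a cluster. It spanned 2708 kb, chr2:53092412-55800115, and held 84 genes, of which 54 were olfactory receptors. It had no H3K4me3 summit in either replicate, and 1 and 2 H3K27ac summits. Its left bound was a CTCF peak of replicate 2 alone with a fold enrichment of 5.80, and its right bound had 16.7 and 20.5 in replicates 1 and 2. In another cluster of 2124 kb, chr2:62462995-64586515, 41 of 75 genes were olfactory receptors and SLC1A6, a glutamate transporter gene, had H3K4me3 at fold enrichments of 40.7 and 18.3. A cluster of 1913 kb on chromosome 13, chr13:160351331-162264161, held 37 olfactory receptor genes and also CLDND1, a claudin domain gene. The start of CLDND1 lay 46.1 kb from the nearest bound and had H3K4me3 at 63.2 and 44.8 and H3K27ac at 31.3 and 32.8. ZNF317, a zinc finger gene 5.74 kb from the edge of a 1322 kb interval of chromosome 2 with 41 olfactory receptors, had H3K4me3 at 65.1 and 42.2.

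**Figure D4:**
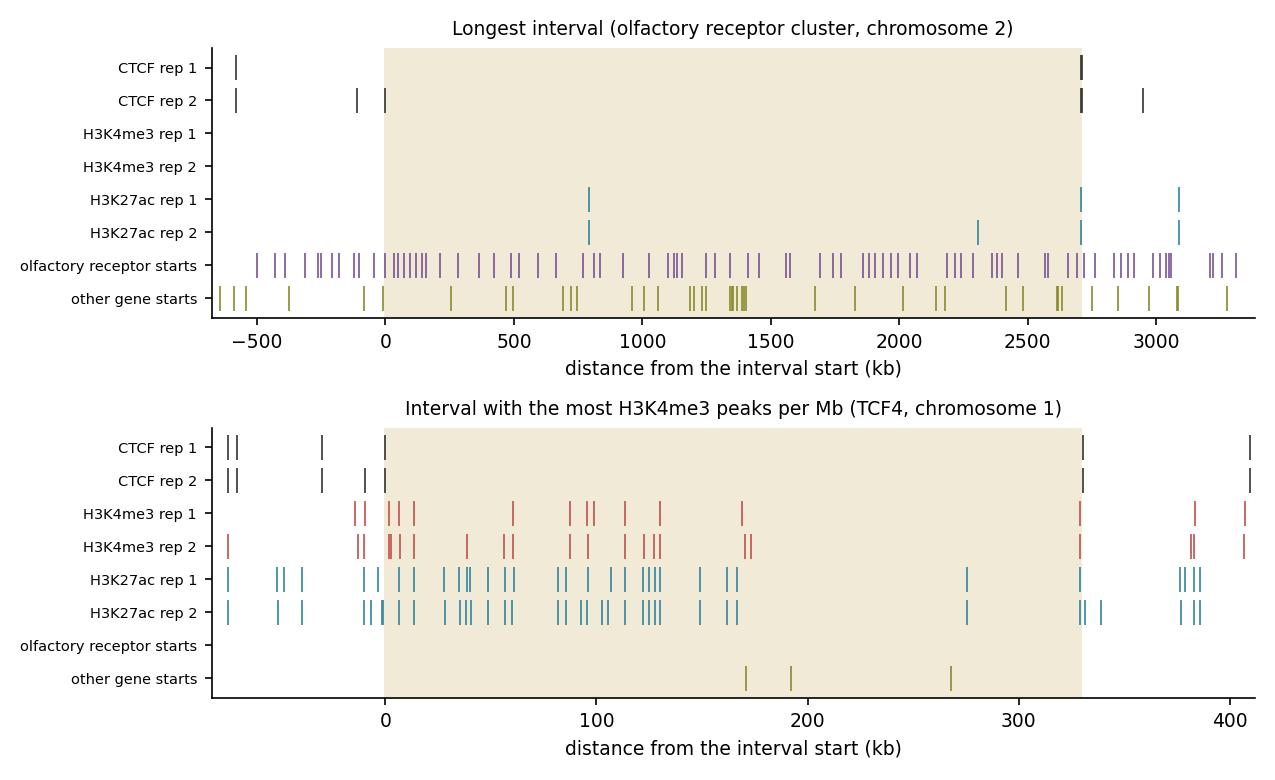
Positions of CTCF, H3K4me3 and H3K27ac peak summits in each replicate and of gene starts, in kb from the start of the interval (x axis), for the longest interval (top) and for the interval with the most H3K4me3 peaks per Mb (bottom), with the interval shaded. The top interval had 54 olfactory receptor genes and no H3K4me3 summit, and the bottom interval had 11 and 16 H3K4me3 summits around TCF4.

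Other long intervals were gene deserts. An interval of 2259 kb, chr11:35218138-37477384, lay between the starts of the protocadherin genes PCDH20 and PCDH9 and held 2 pseudogenes and 1 lncRNA but no histone summit. Its bounds had fold enrichments of 25.6 and 27.2 on the left and 38.5 and 43.1 on the right. An interval of 1910 kb, chr6:20663440-22573636, between GOT2 and the cadherin gene CDH8, held 2 pseudogenes and no histone summit. Its right bound was found in replicate 1 alone, with a fold enrichment of 5.24. The next longest without a histone summit, of 1403 kb at chr12:28774406-30177111, held KIF2B, a kinesin gene, which had neither mark. An interval of 2200 kb, chrX:64805754-67006248, held POU3F4, a POU factor of the inner ear and brain, and CYLC1, a gene of the sperm head. It had 2 and 1 H3K4me3 and 3 and 3 H3K27ac summits. The interval of 1466 kb between OLFM4 and PCDH17 on chromosome 11 had 1 and 4 H3K4me3 summits, and that of 1458 kb between DIAPH2 and PCDH19 on chromosome X had 1 and 1.

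At the end of chromosome X, 3 consecutive intervals covered 5321 kb, chrX:686542-6007565. In these the share of unique 32-base words was 24.6%, 19.3% and 29.1%, and 73.6%, 78.7% and 68.8% of their words also occurred on chromosome Y. The first 2 are 2003 and 1991 kb long and are among the 10 longest. Marked genes were nonetheless found in them. PRKX, a protein kinase gene, had H3K4me3 at 56.8 and 23.2, and PUDP, a pseudouridine phosphatase gene, at 26.4 and 13.0, while the steroid sulfatase gene STS had no peak of either mark. The CTCF lists were made from uniquely mapped fragments, so missing CTCF and missing mappable sequence cannot be told apart in these intervals.

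Long genes filled many of the other intervals. In 86 intervals the whole interval lay inside 1 protein-coding gene. There were 111 protein-coding genes that overlapped an interval by 300 kb or more, with a median length of 858 kb. At their starts 82 (73.9%) had H3K4me3 and 31 (27.9%) had H3K27ac, compared with 80.0% and 57.7% of the 586 other protein-coding genes of 300 kb or more, which had a median length of 413 kb. The longest was TENM2, a teneurin adhesion gene of 3460 kb, in which 3 intervals made up 1647 kb (47.6%), with neither mark at its start. DMD, the dystrophin gene of 2623 kb, had 2 intervals over 34.5% of its length and H3K4me3 at 7.38 and 4.68. RBFOX1, a neuronal splicing factor gene, had 3 intervals over 47.8% and neither mark. LRP1B, a lipoprotein receptor gene, had 3 intervals over 76.0%, with H3K4me3 at 52.9 and 29.2 and H3K27ac at 7.34 and 8.41 at its start. In CSMD1 3 intervals covered 53.1%, in CNTNAP2 2 covered 38.1%, in CTNNA3 2 covered 43.5% and in PTPRD 2 covered 25.8%. These 4 genes all had H3K4me3 at the start, and CTNNA3, a catenin gene, also had H3K27ac. MACROD2 and DLG2 had both marks. Intervals covered 99.9% of both DAB1 and NRG3, genes of neuronal migration and growth factor signalling, in 3 intervals each, and both had H3K4me3 without H3K27ac in both replicates.

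Of 49 neuronal adhesion and synapse genes, 27 overlapped an interval, where the background is 7.9% of all genes and 6.38% of protein-coding genes, and 10 started in one. Many genes of this list are long, and a long gene overlaps more of any set of intervals. At the 10 starts, 3 had H3K4me3, among them CNTN4 (20.8 and 11.3) and SLITRK1 (4.01 and 12.3), and none had H3K27ac. The other 7, among them DCC, NRXN3 and UNC5D, did not have H3K4me3 in both replicates, whereas 35 of the 39 genes of the list that started elsewhere did. Of 18 very long genes, 16 overlapped an interval and 3 started in one. Of 35 cadherin and protocadherin genes 4 started in an interval, of which CDH18, CDH9 and PCDH11X had H3K4me3 and CDH19 did not. CDH18 also had H3K27ac, at 10.8 and 7.03. Of the 31 genes of this list outside the intervals, 22 had H3K4me3 and 12 had H3K27ac. Of 194 neurotransmitter receptor and ion channel genes, 6 (3.09%) started in an interval, below the 6.82% of all genes, and 4 of them had H3K4me3 while none had H3K27ac, as against 130 and 45 of the 188 genes of the list outside. CHRM2, a muscarinic acetylcholine receptor gene, was the highest of these with H3K4me3 at 37.7 and 23.4.

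Developmental transcription factors that started in the intervals numbered 10 of 206 (4.85%), near the 5.3% of all protein-coding genes that did. These were FOXB1, SIX4, LHX8, DLX6, SOX21, SOX14, SOX2, TBX22, POU3F4 and SOX3, and each was in an interval of its own. All 10 had H3K4me3 in both replicates and 1, SIX4, had H3K27ac in both. Of the 196 genes of the list outside the intervals, 169 had H3K4me3 and 105 had H3K27ac. FOXB1, a forkhead factor of the brain, had H3K4me3 at 40.2 and 29.2, and no H3K27ac peak. DLX6, a homeobox gene of limb and jaw, had it at 39.7 and 23.2 in an interval of 599 kb. SOX2, a factor of pluripotent and neural progenitor cells, had H3K4me3 at 25.8 and 17.1, and H3K27ac in replicate 2 alone at 2.77. Its start lay 2.16 kb from the edge of an interval of 496 kb with no other protein-coding gene start, 6 and 9 H3K4me3 and 4 and 3 H3K27ac summits. SIX4, a homeobox gene of muscle development, had H3K4me3 at 58.4 and 23.7 and H3K27ac at 28.1 and 29.5, in an interval with 3 other protein-coding genes. In 8 of the other 9 cases the factor was the only protein-coding gene that started in its interval, and the exception was POU3F4. The 748 intervals held 436 protein-coding gene starts other than olfactory receptors, and how often other genes stood alone was not counted.

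The remaining lists added small numbers. The 6 of 256 ZNF genes in the intervals (2.34%) all had both marks, as against 223 of 250 with H3K4me3 and 215 with H3K27ac outside the intervals. Of 68 genes of the UGT, CYP and SERPIN families 5 started in an interval, all of the CYP2C family of drug-metabolizing enzymes of the liver and all in 1 interval of chromosome 14, and none had either mark, while 23 of the 63 genes of the list outside had H3K4me3. The 4 of 27 taste and vomeronasal receptor genes were in 1 interval of chromosome 6 and had no mark, and neither did the 23 outside. None of 36 keratin genes and none of the 24 listed fibroblast genes, such as COL1A1 and FN1, started in an interval or overlapped one. Of all protein-coding genes 6.38% overlapped an interval, a share at which lists this small would hold few.

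**Figure D5:**
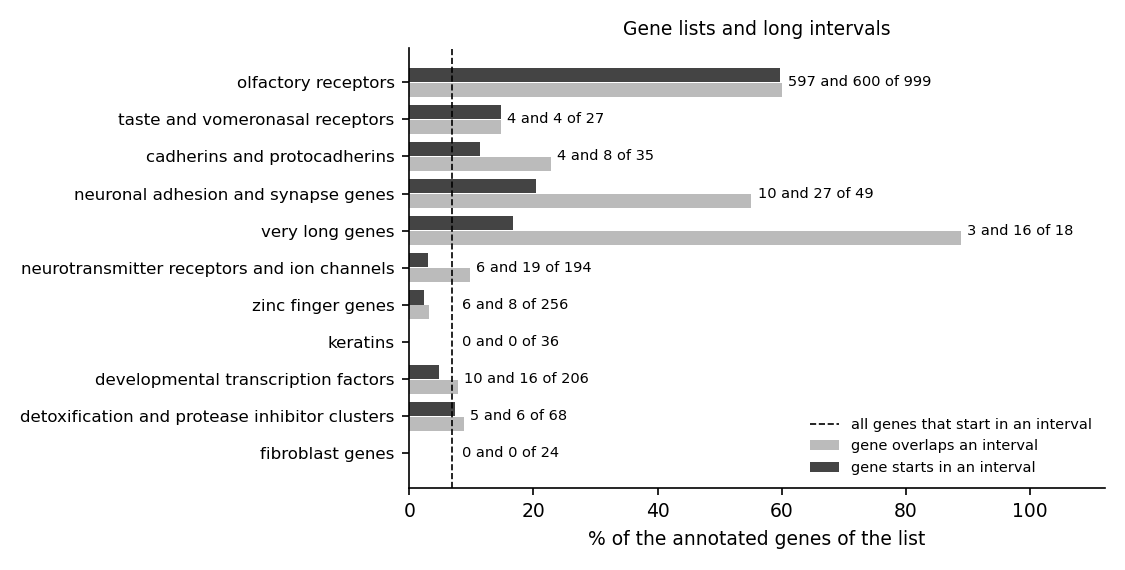
Percentage of the genes of each list (y axis) that start in a long interval (dark bars) or overlap one (light bars), with both counts of the list's total, and the share of all genes that start in an interval (6.82%) as a dashed line. Olfactory receptors stand highest by starts, with 597 of 999, and very long genes by overlap, with 16 of 18.

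A minority of intervals were rich in marks. The most H3K27ac summits per Mb (77.9) were found at chr1:24644394-24978080, an interval of 334 kb between NMBR and CITED2 with 26 summits in each replicate, of which the highest had fold enrichments of 28.5 and 23.0. It held 1 lncRNA gene and no protein-coding gene. The interval at chr2:83311036-83690400 had 28 and 30 H3K27ac summits and 2 lncRNA starts. It overlapped most of ENC1, an actin-binding protein gene at chr2:83678518-83691812 on the reverse strand. The start of ENC1 lay just outside, with H3K4me3 at 56.5 and 29.7 and H3K27ac at 18.6 and 27.4. Both bounds of this interval were found in only 1 replicate, with fold enrichments of 3.95 and 2.76. The interval of RREB1, a zinc finger factor of Ras signalling, had 21 and 31 H3K27ac summits, and that of PRL, the prolactin gene of the pituitary, had 24 and 22. PRL itself had no H3K4me3 peak, and H3K27ac at 6.21 and 6.57.

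The interval of TCF4, a bHLH factor gene of mesenchymal and neural cells, was among the highest in both marks. It spanned 330 kb, chr1:104908940-105238510, and had 11 and 16 H3K4me3 and 23 and 25 H3K27ac summits. The annotated start of TCF4 had H3K4me3 at 48.5 and 38.2 and H3K27ac at 41.6 and 39.3. The bounds had CTCF fold enrichments of 58.5 and 67.3 on the left and 18.5 and 22.5 on the right, with motifs that pointed towards each other. The other intervals with the most H3K4me3 per Mb were those of NFIB, a nuclear factor I gene (11 and 12 summits), ZNF608 (19 and 21), FZD8, a Wnt receptor gene (12 and 14), and an interval without any gene at chr16:77147185-77540151 between ADAMTS16 and IRX1 (12 and 11). In the last, the highest H3K4me3 peak had fold enrichments of 10.8 and 6.90, against 69.0 and 24.7 at FZD8.

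The gene starts with the highest H3K4me3 in the intervals included genes that most cells use. Ordered by the mean of the replicates, NUP155, a nuclear pore gene, came first with 68.6 and 53.9, followed by SHPRH, a DNA repair helicase gene, with 83.4 and 36.1, which was above NUP155 in replicate 1. CAMK2D, a calcium-dependent kinase gene, had 74.5 and 42.1 at a start 161 kb from the nearest CTCF region. NDUFAF7 and CEBPZ share a divergent start and 1 peak of 67.4 and 44.1. CLDND1 followed, then UBE3A, a ubiquitin ligase gene, with 78.6 and 29.3, BIRC6, an inhibitor of apoptosis gene, with 69.4 and 38.0 at 198 kb from the nearest bound, ZNF317 and EBNA1BP2, a ribosome biogenesis gene, with 72.3 and 34.5. All 10 also had H3K27ac in both replicates, from 11.3 at EBNA1BP2 in replicate 1 to 42.7 at UBE3A in replicate 2. Among all H3K4me3-marked genes, 84.9% had H3K27ac.

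The 1395 bounding CTCF regions differed in some properties from the 44420 other regions. Both replicates had the region in 78.4% of the bounding and 82.8% of the other regions (82.7% of all), and a motif lay within 100 bp of the summit in 85.2% and 86.7% (86.6% of all). The median fold enrichment was 15.4 and 13.9 in the bounding regions and 19.8 and 19.4 in the others, in replicates 1 and 2. Histone marks differed more. H3K4me3 in both replicates overlapped 9.75% of the bounding regions (background 21.2%) and H3K27ac 8.03% (background 26.8%), and a gene start lay within 1 kb of 4.44% (background 10.7%). The 101 regions that stood alone between 2 long intervals had a lower median fold enrichment, 11.06 and 11.30, than the 1294 that bounded 1 interval, 15.9 and 14.3, but 88.1% of them had a motif and 79.2% were in both replicates. Of the 748 intervals, 466 (62.3%) had bounds found in both replicates on both sides.

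The orientation of the motifs could be read for 546 intervals. The motifs pointed towards each other in 178 (32.6%), away from each other in 90 (16.5%) and in the same direction in 278 (50.9%). Convergent pairs made up 21.0% in the class under 50 kb and 27.5% in that of 50 to 100 kb. For 100 to 200 kb the figure was 31.4%, and for 200 to 300 kb it was 32.9%. The share in the long intervals thus lay near that of intervals of 100 to 300 kb. In intervals of 1 Mb or more, 5 of 17 pairs were convergent.

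Strong motif matches without a CTCF peak also lay in the intervals. The motif consensus was NNNCCACNAGNGGGCGCNN, searched on both strands. At p under 1e-06 there were 30434 matches, of which 65.5% were under a CTCF region, and 1187 lay in 451 of the long intervals, or 3.33 per Mb. The rest of the chromosomes had 4.58 per Mb that were not under a peak, and 14.4 per Mb over all matches. At p under 1e-05 the intervals had 31.9 per Mb. The rest then had 49.1 per Mb not under a peak and 67.1 per Mb over all matches. The intervals hold no CTCF peak by rule, so their matches are all without a peak. The 3 matches with the highest scores in the intervals are shown because they score above the bound sites printed earlier. They were chosen after their values were seen, and the capitals again mark the motif.

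chr11:64882039-64882087, forward strand, in an intron of LOC100738425: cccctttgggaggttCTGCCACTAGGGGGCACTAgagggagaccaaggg
chr6:76281983-76282031, forward strand, intergenic near ACTL8: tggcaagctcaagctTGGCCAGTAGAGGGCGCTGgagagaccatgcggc
chr6:76286086-76286134, forward strand, intergenic near ACTL8: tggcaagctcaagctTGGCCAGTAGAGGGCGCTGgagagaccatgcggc

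Their log2 motif scores were 25.22, 25.08 and 25.08, above all 10 scores of the bound sites shown first, whose highest was 21.70. The pair on chromosome 6 lay 4.10 kb apart and were identical over all the bases shown. The interval of the first site had 36.0% unique 32-base words and that of the pair 62.4%, both below the median of 89.6% over the intervals.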

How the data were processed

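ChIP-seq peak lists of H3K4me3, H3K27ac and CTCF from PEFs (2 libraries each) were used, and the inputs were not used here. Per the methods and labels, the authors aligned the fragments to Sscrofa11.1 by Bowtie2, discarded those without a unique position and duplicates (Picard), and ran MACS2 on each library for narrow peaks (tool versions are not given in the sources used here). The deposited lists give an integer score (not used), a fold enrichment, which is a ratio over control, and −log10 p-values and q-values. The methods state a stricter q-value cut, but the weakest deposited peaks had a −log10 q-value of 1.30, so all peaks were used as deposited. Depth is unknown.

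Peaks that overlapped or touched were merged. Histone peaks were placed by summit. Genes were those of RefSeq annotation release 106, and a start was marked when a peak overlapped 1 kb on either side in both replicates. Repeats are the lower-case bases of the reference. Unique 32-base words were sampled every 500 bp and counted over the whole assembly. A CTCF motif was trained on 600 strong peaks by expectation maximisation, and a match needed p under 1e-04 within 100 bp of the summit. The steps were tested on simulated data. Python 3.11.15, numpy 2.4.6, pandas 2.3.3, scipy 1.17.1, numba 0.67.0 and matplotlib 3.10.9 were used.

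Named intervals were the 10 longest, those richest in each mark, the 3 longest without a histone summit and the 5 with the strongest bounds. Named genes were the 10 with the highest H3K4me3, the 10 longest and members of 11 lists. The intervals, genes and lists were chosen with earlier results of these data known, so no test was run, and each value stands per replicate or as a mean ± SD (n = 2).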

Additional observations from a re-analysis of the deposited data

How the results depend on the processing

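No paired analysis was possible because the results come from no test. In all 58 alternative values of density and marked share, the intervals were below the rest of the chromosomes, which held the CTCF regions each time. Without 1 CTCF replicate, the number of intervals ranged from 798 to 965, the total length from 382 to 467 Mb, the H3K4me3 density from 3.63 to 4.30 and the H3K27ac density from 6.27 to 8.15 per Mb, and the marked shares from 14.6% to 17.9% (H3K4me3) and from 9.64% to 12.8% (H3K27ac). With only CTCF peaks shared by the replicates there were 1020 intervals over 499 Mb, with 4.52 H3K4me3 and 8.85 H3K27ac peaks per Mb, 18.96% and 14.0% of starts marked and a motif at 88.4% of bounds, and 298 of these intervals held none of the 748. A minimum of 200 kb gave 1895 intervals, 633 Mb, 5.17 and 10.3 peaks per Mb and 21.0% and 15.2% of starts marked. A minimum of 500 kb gave 203 intervals, 151 Mb, 1.71 and 2.76 peaks per Mb and 6.10% and 3.72% of starts marked. The H3K27ac density was 6.21 per Mb with CTCF peaks of −log10 q of at least 5, 5.82 on chromosomes 1 to 18 only and 3.86 with H3K27ac peaks of −log10 q of at least 5. Peaks covered 4532 (H3K4me3) and 7910 bp (H3K27ac) per Mb inside, against 33736 and 68382 bp outside. A window of 5 kb marked 15.9% and 10.8% of starts, and protein-coding genes alone 21.3% and 13.0%. At motif p under 1e-05, 65.9% of bounds had a motif. Chosen after seeing the data, leaving out intervals with under 70% unique words gave 5.77 H3K27ac peaks per Mb and 19.3% and 12.2% of starts marked, and leaving out those with 10 or more genes gave 5.76 and 25.3% and 15.4%. The convergent share stayed between 31.8% and 34.0% in every alternative run for it. The cause of these shifts was not tested.

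The deposited lists hold no reads for places without a peak, so an interval without CTCF means that no peak was called in either library. With 2 libraries per antibody and unknown depth, weak binding in these intervals was not detectable.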
